A study of Mus musculus with 14 samples.

Results

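The 9 genes examined encode the neuropeptide and neurotransmitter machinery of lung group 2 innate lymphoid cells (ILC2s). They comprise 6 receptors or receptor subunits (Nmur1, Calcrl, Ramp1, Ramp3, Vipr1 and Vipr2), 1 ligand precursor (Calca) and 2 enzymes (Chat and Maob). They were chosen by name, without reference to a measured value in the rule, and all 9 were found by gene symbol among the 53278 genes of both the count and the TPM tables. RNA-seq covered 14 libraries of ILC2s sorted from mouse lung as live, lineage-, CD90.2+, CD3- cells. One experiment compared 4 unstimulated libraries with 4 libraries of cells given 20 ng/mL of IL-33 over 24 h, all from B6 mice, and asked which genes change when this alarmin activates ILC2s. The labels say that the unstimulated cells were cultured but give no time. The study's methods describe 24 h of culture for both arms, whereas its results call these cells ex vivo, so the sources used here do not settle whether the time in culture was matched. The other experiment compared 3 Blimp-1-deficient libraries (Blimp-1 floxed, IL7Ra Cre) with 3 Control libraries (genotype ControlIL7RaCre), all from ILC2s cultured for 72 h with IL-33 and IL-25 at 20 ng/mL each, and, per the study's methods, IL-2. It asked which genes depend on the transcriptional repressor Blimp-1, encoded by Prdm1. IL7Ra Cre also deletes the floxed gene in other ILCs, T cells, B cells and NK cells, so the sorted cells came from animals in which those lineages were altered too. The titles give each library a mouse number, and the same numbers recur in the groups of an experiment. The labels do not say whether the unstimulated and stimulated libraries of 1 number share an animal, and legends of the study describe sorted samples of pooled animals. In bulk RNA a change in the share of expressing cells cannot be told apart from a change in RNA per cell.

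Nerves reach the airway mucosa close to ILC2s, and these cells read neuronal signals through G protein-coupled receptors. NMUR1, the receptor of neuromedin U, couples to Gq and calcium signalling and is known for activating ILC2s. Calcitonin gene-related peptide (CGRP), a product of Calca, binds CALCRL with high affinity when that receptor is paired with RAMP1, whereas RAMP2 or RAMP3 turns the same receptor into an adrenomedullin receptor; both pairs couple to Gs and cAMP. VIPR1 and VIPR2 are Gs-coupled receptors of vasoactive intestinal peptide (VIP) and PACAP. CHAT makes acetylcholine, and MAOB is a mitochondrial enzyme that oxidizes monoamines.

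Libraries of the stimulation experiment held 10470125 to 32849428 counts, and those of the Blimp-1 experiment 13570188 to 76448945. Before any gene was compared, 2 libraries stood apart. IL-33 stimulated replicate 3 had the lowest total of its experiment, and its log2 ratios to the other stimulated libraries had an SD of 1.37 to 1.40 over 10810 genes, against 0.19 to 0.31 for every other pair in a stimulation group. Its summed level of 20 neuron and glia markers was 3508 CPM (normalized counts per 1e+06), against 142 to 175 in the other stimulated libraries and 215 to 246 in the unstimulated ones. All 20 markers were higher in it than in each other stimulated library, by a median of 62.0-fold. Control replicate 2 had 76.8% of its counts on 7 loci and only 3150795 counts elsewhere, and its log2 ratios to the other Controls had an SD of 0.87 to 0.89 over 10153 genes, against 0.24 between Controls 1 and 3. Its 13 epithelial or stromal markers summed to 4517 CPM, against 133 and 309 CPM in Controls 1 and 3. Test results for the 9 genes are therefore given with and without the library concerned. All 17 ILC2 markers, among them Gata3 and Il1rl1, had counts in every library. The targeted gene Prdm1 was at 14.6, 11.5 and 11.4 CPM in Blimp-1-deficient replicates 1 to 3 and at 75.2, 92.8 and 74.0 CPM in the Controls.

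The promoters of the CGRP receptor system are shown first because Ramp3, Calca and Ramp1 gave the largest fold changes after IL-33 over all libraries, and Calcrl is the receptor they share. The windows are the 250 bases before the annotated start, from RefSeq for GRCm38.p6, which held a window for 8 of the 9 genes (Maob had none). Capitals mark letters searched on both strands: GAAAGT, the core of the Blimp-1 motif, in Calcrl, and TGACG, the short form of the cAMP response element, with AGATAA, the GATA motif read on the opposite strand as TTATCT, in Calca. The sequences, written 5′ to 3′ on the gene's strand, are Calca (chr7:114636358-114636607, minus strand), Calcrl (chr2:84425267-84425516, minus strand), Ramp1 (chr1:91179572-91179821, plus strand) and Ramp3 (chr11:6658283-6658532, plus strand).
Calca: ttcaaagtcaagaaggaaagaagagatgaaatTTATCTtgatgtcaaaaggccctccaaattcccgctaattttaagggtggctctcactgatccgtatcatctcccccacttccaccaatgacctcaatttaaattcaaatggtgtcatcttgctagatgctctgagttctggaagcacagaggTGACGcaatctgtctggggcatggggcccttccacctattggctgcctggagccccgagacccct
Calcrl: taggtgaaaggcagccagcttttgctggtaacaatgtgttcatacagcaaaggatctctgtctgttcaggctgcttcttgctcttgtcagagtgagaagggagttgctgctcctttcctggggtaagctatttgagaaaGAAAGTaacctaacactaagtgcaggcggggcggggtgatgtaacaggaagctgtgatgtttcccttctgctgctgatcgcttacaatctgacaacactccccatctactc
Ramp1: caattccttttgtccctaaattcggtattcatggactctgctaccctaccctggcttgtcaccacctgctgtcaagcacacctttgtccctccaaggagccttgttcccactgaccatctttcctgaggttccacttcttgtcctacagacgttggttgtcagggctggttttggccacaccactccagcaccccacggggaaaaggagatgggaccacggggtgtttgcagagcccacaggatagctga
Ramp3: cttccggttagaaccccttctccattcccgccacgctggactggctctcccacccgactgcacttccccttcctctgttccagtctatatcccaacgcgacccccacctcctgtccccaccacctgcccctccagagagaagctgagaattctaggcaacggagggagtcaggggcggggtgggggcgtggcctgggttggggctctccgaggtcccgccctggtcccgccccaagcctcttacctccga
The TGACG of Calca lay 65 to 61 bases before the start, and 17.8% of 32851 such windows hold these letters. The GAAAGT of Calcrl lay 111 to 106 bases before the start, in common with 12.3% of all windows. That start is at 84425266 in RefSeq, whereas the GENCODE span of Calcrl begins upstream of it, at 84425411 on the minus strand. The GAAAGT letters therefore lie inside the GENCODE span. Of the 9 windows searched, GAAAGT was in 2 (Calcrl and Chat) and TGACG in 3 (Calca, Vipr1 and Chat). AGATAA was found in 9.99% of windows, and GGAAA, the NFAT core, which is not marked, in 55.6% of all windows and 5 of the 9 searched. The full cAMP response element TGACGTCA (1.55% of windows) and the AP-1 letters TGACTCA (4.46%) were in none of the 9 windows searched, 2 of which belong to Nmur1. The Ramp3 window was richer in G and C than that of Ramp1 (65.2% against 54.0%) and held 13 CpG dinucleotides against 4. A match of letters is a description and not a binding site.

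After IL-33, 4 of the 8 members tested passed an adjusted p of 0.05 (edgeR's quasi-likelihood test, Benjamini-Hochberg over 15466 genes). Calca and Ramp3 rose, Nmur1 and Ramp1 fell, and Calcrl, Vipr1, Vipr2 and Maob did not pass. Of all genes tested, 16.2% were called higher and 16.1% lower, so calls in both directions were common in this fit, and the 2 higher and 2 lower members are read against that. Without stimulated replicate 3, 3 of 8 were higher and 3 lower, the additions being Calcrl and Vipr1, of which Vipr1 passed the low-count filter only through the unstimulated group where it was higher, in a fit that called 27.5% of 15733 genes higher and 29.7% lower. Chat was too low to be tested in either fit. The plot of normalized counts by library shows these levels for all 9 genes.

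**Figure D1:**
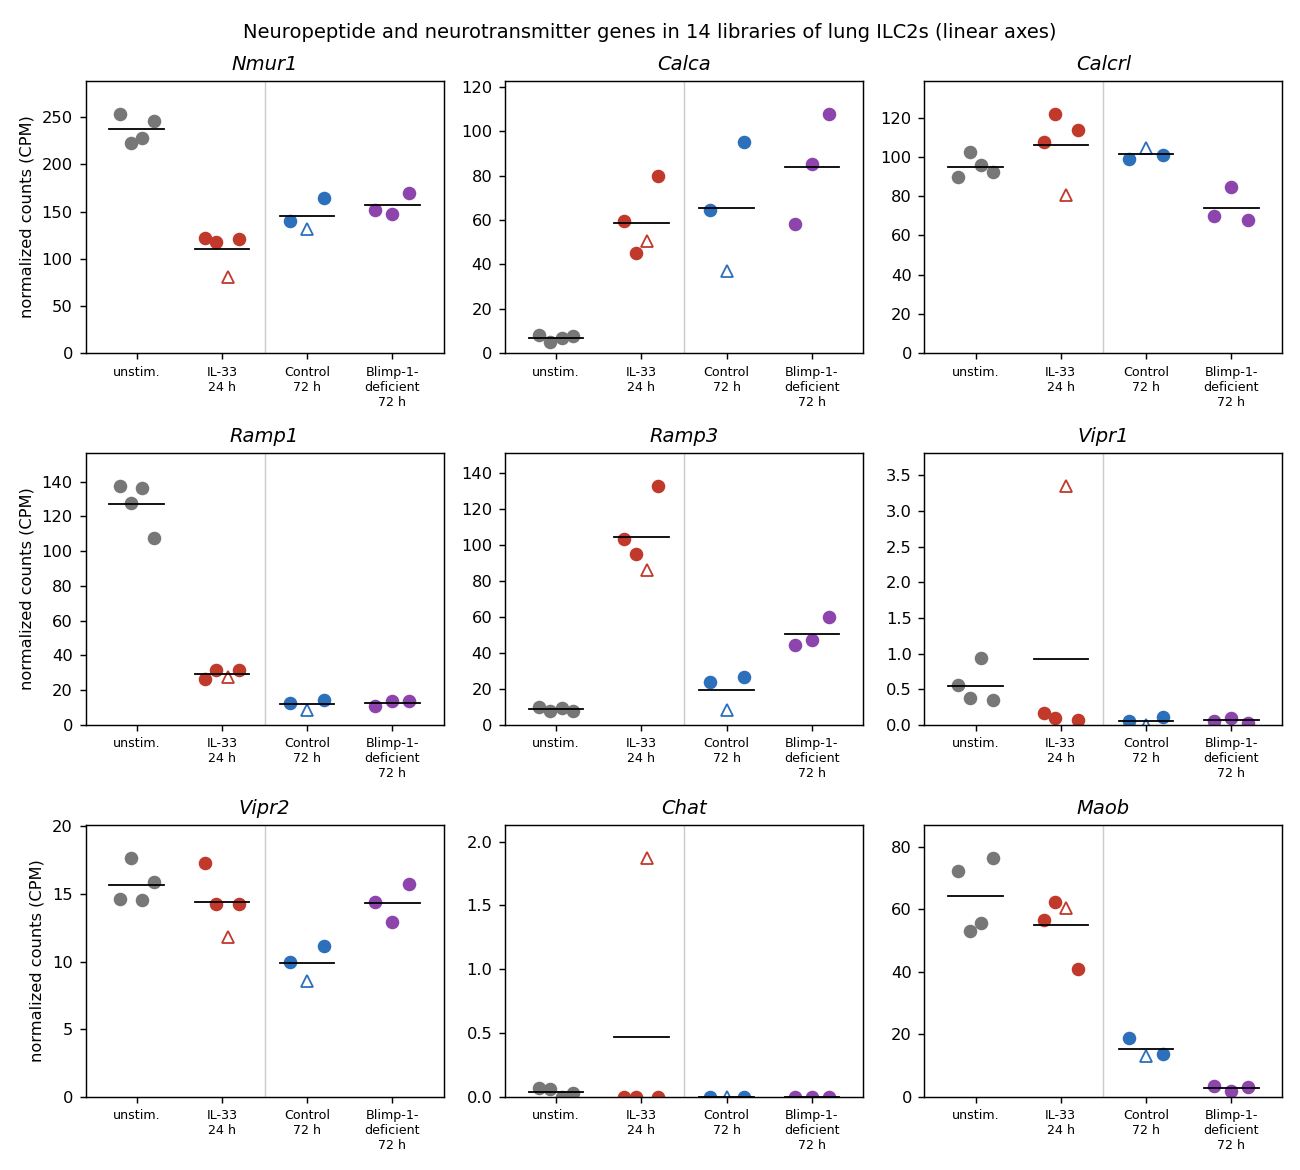
Normalized counts (CPM, linear axes) of the 9 genes in 14 libraries, with 1 point per library, the group mean as a line, and IL-33 stimulated replicate 3 and Control replicate 2 as open triangles. Ramp1 and Ramp3 separate unstimulated from IL-33 stimulated libraries in opposite directions, Maob separates Blimp-1-deficient from Control libraries, and Vipr1 and Chat are highest in the open triangle of the stimulated group.

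Ramp3, on chromosome 11 (GRCm38, chr11:6658521-6677475, plus strand), was at 10.1, 7.70, 9.60 and 7.50 CPM in unstimulated replicates 1 to 4. In the IL-33 stimulated libraries it was at 103, 95.3, 86.2 and 133 CPM, the third value being that of replicate 3. The groups did not overlap, and the lowest stimulated library was 8.53-fold above the highest unstimulated one. The log2 fold change was 3.58 (SE 0.17, edgeR adjusted p = 1.06e-05), which is 12.0-fold, and 3.67 (SE 0.14) without replicate 3. The antisense pseudogene Gm11978 overlaps 7.32% of the exon bases of Ramp3, and since no source used here gives the strand of counting, its reads may be counted with those of Ramp3.

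Ramp1 (chr1:91179822-91225196, plus strand), the partner that makes CALCRL a CGRP receptor, moved in the opposite direction. It was at 137, 127, 136 and 107 CPM in the unstimulated libraries and at 26.4, 31.7, 27.8 and 31.5 CPM after IL-33. All 4 stimulated libraries, replicate 3 included, lay close together and far below the unstimulated ones. Ramp1 fell by 2.11 on the log2 scale (SE 0.11, edgeR adjusted p = 1.12e-05), a 4.33-fold decrease, and by 2.09 without replicate 3. Ramp2, the remaining member of this small family, was at a mean of 1.53 CPM without and 0.75 CPM with IL-33 and fell by 1.02 (SE 0.30, edgeR adjusted p = 0.0325), or by 0.97 (SE 0.31, edgeR adjusted p = 0.0218) without replicate 3.

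Calcrl (chr2:84330626-84425411, minus strand), the receptor that the RAMP proteins accompany, was at 89.8, 102, 95.9 and 92.3 CPM before and 108, 122, 80.7 and 114 CPM after IL-33. Replicate 3 was the lowest stimulated library and lay below every unstimulated one, while the other 3 lay above all unstimulated libraries. Over all libraries the log2 fold change was 0.16 (SE 0.12, edgeR adjusted p = 0.349). Without replicate 3 Calcrl rose by 0.27 (SE 0.06, edgeR adjusted p = 0.00484), which is 1.20-fold. It passed under 4 of 5 alternative settings of that fit and missed the threshold under 1. The log2 fold changes under these settings, all of them on counts, were 0.0895 to 0.30. In TPM the groups overlapped. Calcrl was at a mean of 67.5 TPM (60.5 to 73.4) in unstimulated libraries. In stimulated replicates 1, 2 and 4 it was at 65.6 TPM (62.2 to 70.7), so the rise was not seen in TPM. Calcrl is also an endothelial gene. Of 10 endothelial markers, 9 were lower and 1, Pecam1, higher in the same fit without replicate 3, and their summed level was 112 to 211 CPM in unstimulated libraries and 159 to 177 CPM in stimulated replicates 1, 2 and 4. Cdh5 fell from a mean of 31.6 to 18.2 CPM and Kdr from 13.4 to 3.34 CPM there, while Pecam1 rose with Calcrl, from 62.4 to 129 CPM. The part of endothelial transcripts in the Calcrl values was not tested.

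The transcript balance among the receptor partners can be set out per length, as the share of each Ramp in the summed TPM of Ramp1, Ramp2 and Ramp3. Ramp1 made up 86.1% ± 1.04 (SD, n = 4) in unstimulated ILC2s and 11.5% ± 1.70 (SD, n = 4) after IL-33. Ramp3 made up 12.9% ± 0.93 and 88.2% ± 1.73, respectively, and its share in stimulated replicate 3 was 86.9%, within the 86.5 to 90.0% of the group. After 72 h with IL-33 and IL-25, Ramp3 made up 79.1% and 79.0% in Controls 1 and 3, 61.9% in Control 2, where each of Ramp1 and Ramp3 had 34 counts, and 88.8% ± 1.40 (SD, n = 3) in Blimp-1-deficient ILC2s. Ramp3 was thus the leading partner in all 10 activated libraries and Ramp1 in all 4 unstimulated ones, as drawn in the plot of Ramp shares. The summed Ramp level was 2.52 ± 0.33 times that of Calcrl in unstimulated (SD, n = 4) and 3.98 ± 0.62 times in stimulated ILC2s (SD, n = 4). After 72 h with IL-33 and IL-25 it was 1.089 and 1.178 times in Controls 1 and 3 and 0.452 times in Control 2. All Controls thus lay below every unstimulated library. In Blimp-1-deficient ILC2s it was 2.75 ± 0.63 times (SD, n = 3). A higher ratio was therefore not shared by all activated libraries. These shares and ratios were computed after the levels had been seen and are given without a test.

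**Figure D2:**
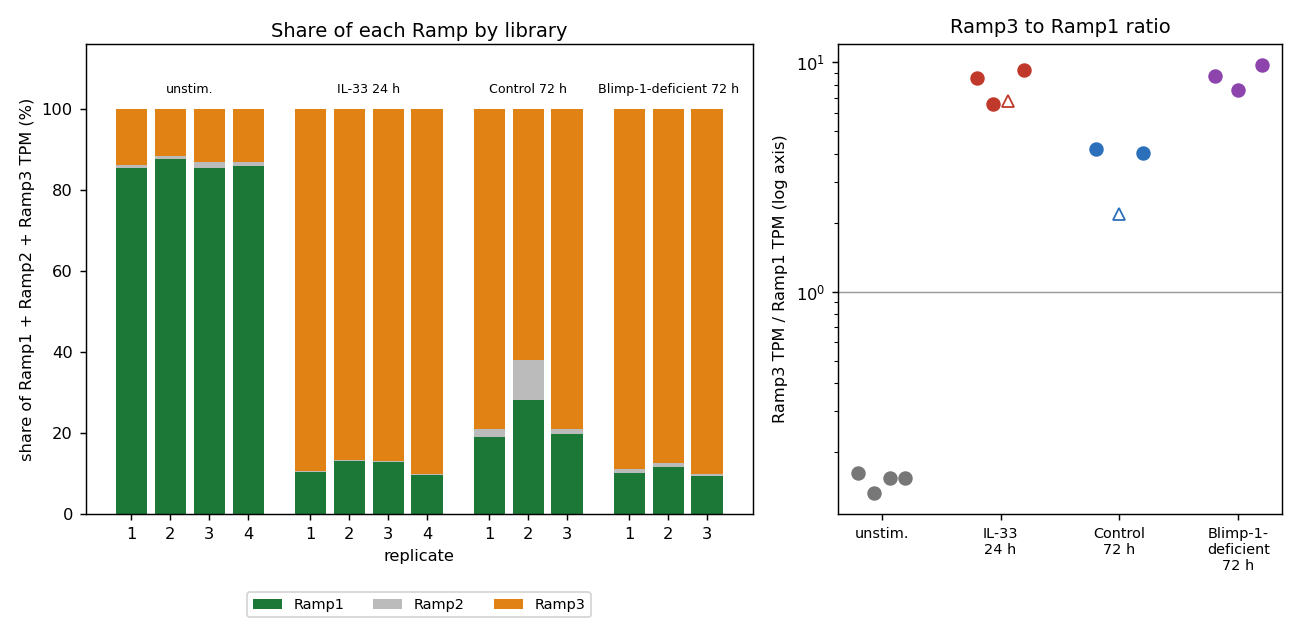
Left, share of Ramp1, Ramp2 and Ramp3 in their summed TPM (percent) for each of 14 libraries, with the replicate number on the x axis. Right, ratio of Ramp3 to Ramp1 TPM by group on a log axis, with open triangles for IL-33 stimulated replicate 3 and Control replicate 2; the ratio is 0.13 to 0.16 in the unstimulated libraries and 2.19 to 9.71 in the others.

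Calca (chr7:114631478-114636357, minus strand), the gene of calcitonin and CGRP, was at 8.26, 5.07, 6.88 and 7.85 CPM in unstimulated ILC2s and at 59.7, 45.1, 50.7 and 79.9 CPM after IL-33. The groups did not overlap, and replicate 3 lay inside the range of the other stimulated libraries. Calca rose by 3.07 on the log2 scale (SE 0.23, edgeR adjusted p = 6.47e-05), which is 8.39-fold, and by 3.14 (SE 0.21) without replicate 3. Calcitonin and CGRP arise from alternative splicing of this gene, and counts per gene do not separate them. Calcb, which encodes the other CGRP, had at most 6 counts in any library. Pulmonary neuroendocrine cells are a known source of Calca. Their markers Chga, Chgb and Resp18 were at means of 0.52, 0.24 and 0.41 TPM in unstimulated ILC2s and 0.17, 0.11 and 0.12 TPM in stimulated replicates 1, 2 and 4, where Calca was at 14.4 and 102 TPM. All 10 markers of that list summed to 1035 to 1148 CPM in unstimulated libraries, 363 to 422 CPM in stimulated replicates 1, 2 and 4 and 918 CPM in replicate 3, and 3 of the 6 tested were lower without replicate 3, led in level by Pcsk1, which encodes a prohormone convertase. The part of such cells in the Calca values was not tested.

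Nmur1 (chr1:86386303-86426228, minus strand) was at 253, 223, 228 and 247 CPM in unstimulated ILC2s and at 122, 118, 80.6 and 121 CPM after IL-33. The lowest of the stimulated values was again replicate 3, and the groups did not overlap with or without it. Nmur1 fell by 1.10 on the log2 scale (SE 0.14, edgeR adjusted p = 0.000584), a 2.15-fold decrease, and by 0.98 (SE 0.06, edgeR adjusted p = 6.02e-07) without replicate 3. Its ligand gene Nmu had no count in any of the 14 libraries. Marker lists moved beside the falls of Nmur1 and Ramp1. Of the 17 ILC2 markers, 12 were lower and 4 higher after IL-33, both with and without replicate 3. The summed level of these 17, which include the cytokine genes Il5 and Il13, went the other way. It was 10010.0 to 11254.5 CPM in unstimulated libraries, 39945.9 to 48682.9 CPM in stimulated replicates 1, 2 and 4 and 29893.0 CPM in replicate 3. Of 10 T cell markers, 5 were lower with and 6 without that library, and their summed level was 82.7 to 103 CPM in unstimulated libraries, 36.7 to 42.7 CPM in stimulated replicates 1, 2 and 4 and 24.4 CPM in replicate 3. Of 8 epithelial or stromal markers tested, 4 were lower with and 6 without it, and all 13 summed to 459 to 817, 161 to 225 and 404 CPM, respectively. The part of these cells in the Nmur1 and Ramp1 values was not tested.

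Vipr2 (chr12:116077726-116146261, plus strand) was at 14.6, 17.7, 14.6 and 15.9 CPM in the unstimulated libraries, against 17.3, 14.3, 11.8 and 14.3 CPM after IL-33. The groups overlapped, and the log2 fold change was -0.12 with a 95% interval of -0.46 to 0.22, or -0.04 with an interval of -0.28 to 0.21 without replicate 3. Vipr1 (chr9:121642716-121672954, plus strand) was close to the limit of detection, with 16, 13, 22 and 11 counts in unstimulated libraries and 5, 3 and 2 counts in stimulated replicates 1, 2 and 4. Replicate 3 held 34 counts of Vipr1, or 3.35 CPM, 30.2-fold above the mean of the other stimulated libraries. With it the log2 fold change was 0.57 (SE 1.21, edgeR adjusted p = 0.738), and without it the value was -2.23 (SE 0.54). Vipr1 entered the fit without replicate 3 through the unstimulated group, the only one with more than 5 counts in any library there, so that value is given as a description and not as a test. Adcyap1r1, the PACAP receptor of the same family, took the same course, at 1.37 to 3.44 CPM in unstimulated libraries, 0.52 to 1.03 CPM in stimulated replicates 1, 2 and 4 and 28.1 CPM in replicate 3. Its log2 fold change was 1.69 (SE 1.30, edgeR adjusted p = 0.339) with that library and -1.63 (SE 0.40, edgeR adjusted p = 0.00637) without it. The ligand gene Vip had 31 counts in replicate 3 and 0 to 6 in the other 7 libraries of this experiment.

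Chat (chr14:32408203-32465989, minus strand) had 2, 2, 0 and 1 counts in the unstimulated libraries and 0 counts in stimulated replicates 1, 2 and 4, where a count of 0 allows up to 0.0972 to 0.106 CPM. Replicate 3 held 19 counts, or 1.87 CPM. Slc5a7, the choline transporter of cholinergic neurons, had 74 counts there and at most 8 in any other library, and Ache, acetylcholinesterase, was at 23.1 CPM there against 0.87 to 1.20 CPM in the other stimulated libraries. The values of Chat, Vipr1, Adcyap1r1 and Slc5a7 in replicate 3 moved with the neuron markers Snap25 (548 CPM against 5.42 to 9.20 CPM) and Syt1 (439 CPM against 3.78 to 6.44 CPM), as the plot of neuron markers beside these genes shows. The part of those transcripts in the values was not tested. Counting intervals and limits cover counting error only.

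**Figure D3:**
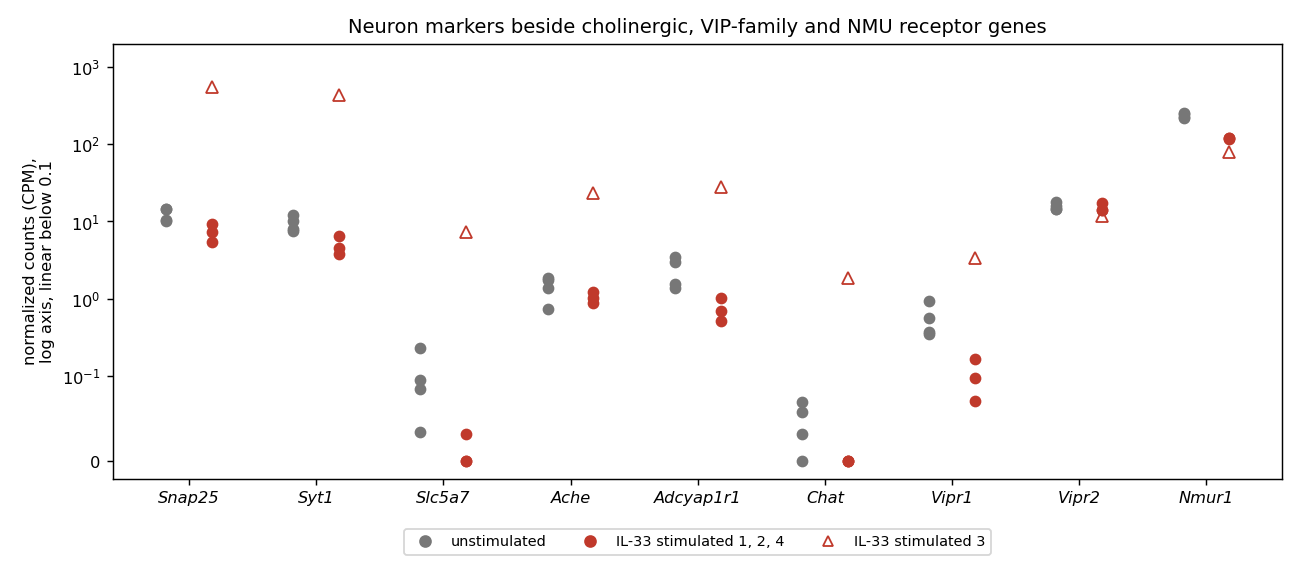
Normalized counts (CPM, log axis, linear below 0.1) of 2 neuron markers, of cholinergic and VIP-family genes and of Nmur1 in the 8 libraries of the stimulation experiment, with 1 point per library. Stimulated replicate 3 (open triangle) is above all other libraries for Snap25, Syt1, Slc5a7, Ache, Adcyap1r1, Chat and Vipr1 and is the lowest stimulated library for Vipr2 and Nmur1.

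Maob (chrX:16709282-16817366, minus strand) was at 72.2, 52.9, 55.7 and 76.3 CPM in the unstimulated libraries, against 56.4, 62.4, 60.5 and 40.7 CPM after IL-33. The groups overlapped, and the log2 fold change was -0.23 with a 95% interval of -0.62 to 0.17, or -0.27 with an interval of -0.64 to 0.09 without replicate 3. Maoa, the sister enzyme on which serotonin and noradrenaline breakdown mainly rests, was at 8.26, 6.07, 7.39 and 6.71 CPM before and 11.0, 14.4, 35.5 and 9.17 CPM after IL-33. It rose by 1.29 (SE 0.42, edgeR adjusted p = 0.0485) with replicate 3 and by 0.70 (SE 0.17, edgeR adjusted p = 0.00539) without it, from a level below that of Maob.

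In the Blimp-1 comparison over all 6 libraries, 1 of the 7 members tested passed an adjusted p of 0.05. That member was Maob, which was lower in Blimp-1-deficient ILC2s. This fit called 0.45% of 17335 genes higher and 0.306% lower. Without Control replicate 2, Ramp3 and Vipr2 were higher and Maob and Calcrl lower, against 8.25% of 17968 genes called higher and 5.72% lower. Of the 17 ILC2 markers, 4 were higher and 5 lower without Control 2, and 0 passed over all libraries. They summed to 15167.6 to 19707.4 CPM in Blimp-1-deficient libraries, against 22787.7 and 23065.2 CPM in Controls 3 and 1. In Control 2 the sum was 13828.1 CPM. The cytokine genes Il5 and Il13 were highest in this list, at means of 5984 and 5797 CPM over all 6 libraries. The sum therefore follows these transcripts as well as the other markers. The part of these marker differences in the values of the members was not tested. Vipr1 and Chat were too low to be tested in either fit, with at most 10 counts of Vipr1 and 0 counts of Chat in each of the 6 libraries. For Chat, a count of 0 allows up to 0.0310 to 0.0387 CPM in the libraries other than Control 2 and 0.731 CPM in that one.

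Maob was at 18.9, 13.2 and 13.8 CPM in Controls 1 to 3 and at 3.43, 1.68 and 3.06 CPM in Blimp-1-deficient replicates 1 to 3. The groups did not overlap, and Control 2 had the lowest Control value. Maob fell by 2.49 on the log2 scale (SE 0.31, edgeR adjusted p = 0.0353), a 5.63-fold decrease, and by 2.57 (SE 0.28, edgeR adjusted p = 0.00271), or 5.93-fold, without Control 2. The adjusted p over all 6 libraries depended on the libraries present. It stayed under the threshold when Control 2 was left out and missed it when any one of the other 5 was, with the log2 fold change negative each time. Maoa was at 9.90, 12.7 and 7.49 CPM in Controls 1 to 3 and at 5.81, 7.31 and 5.86 CPM in the Blimp-1-deficient libraries. The log2 fold change of Maoa was -0.64 (SE 0.23, edgeR adjusted p = 0.333), or -0.45 (SE 0.17, edgeR adjusted p = 0.114) without Control 2.

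Ramp3 was at 24.1, 8.28 and 26.6 CPM in Controls 1 to 3 and at 44.2, 47.3 and 60.0 CPM in Blimp-1-deficient ILC2s. Every Blimp-1-deficient library lay above every Control, and Control 2, with 34 counts of the gene, was the lowest. The log2 fold change was 1.29 (SE 0.37, edgeR adjusted p = 0.230) over all libraries, and Ramp3 rose by 1.00 (SE 0.13, edgeR adjusted p = 0.00457) without Control 2, which is 2.01-fold. In that fit 3 of 10 epithelial or stromal markers tested and 2 of 10 myeloid markers tested were higher. The 13 epithelial or stromal markers summed to 380 to 663 CPM in Blimp-1-deficient libraries, against the sums of Controls 1 and 3 given above, and the 12 myeloid markers to 33.2 to 108 CPM, against 29.9 and 121 CPM. The part of such transcripts in the values of Ramp3 and Vipr2 was not tested. Both activated groups of the 72 h experiment thus had more Ramp3 than Ramp1, with the larger excess in the absence of Blimp-1 (a ratio of 7.59 to 9.71 in TPM, against 4.17 and 4.01 in Controls 1 and 3). Ramp1 was at 12.6, 8.28 and 14.5 CPM in Controls 1 to 3, against 11.1, 13.6 and 13.5 CPM without Blimp-1, with overlapping groups. Its log2 fold change was 0.08 (95% interval -0.44 to 0.60), or -0.08 (95% interval -0.35 to 0.19) without Control 2.

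Calcrl was at 98.8, 105 and 101 CPM in Controls 1 to 3 and at 69.9, 84.6 and 67.9 CPM in Blimp-1-deficient ILC2s. The groups did not overlap, and Control 2 lay beside the other Controls. The log2 fold change was -0.45 (SE 0.11, edgeR adjusted p = 0.156) over all libraries, and Calcrl fell by 0.42 (SE 0.10, edgeR adjusted p = 0.0310) without Control 2, a 1.34-fold decrease. In that fit 2 of 10 endothelial markers, Pecam1 and Lyve1, were higher, and the list summed to 141 and 194 CPM in Controls 1 and 3 and to 248 to 301 CPM in Blimp-1-deficient libraries. The part of endothelial transcripts in the Calcrl values was not tested here either.

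Vipr2 was at 9.96, 8.52 and 11.2 CPM in Controls 1 to 3 and at 14.4, 12.9 and 15.7 CPM in Blimp-1-deficient ILC2s, with no overlap. The log2 fold change was 0.52 (SE 0.15, edgeR adjusted p = 0.222) with Control 2, and Vipr2 rose by 0.45 (SE 0.11, edgeR adjusted p = 0.0349) without it, which is 1.37-fold. Nmur1 was at 140.0, 131 and 165 CPM in Controls 1 to 3, against 152, 147 and 170.3 CPM without Blimp-1, and the groups overlapped. Its log2 fold change was 0.11 (95% interval -0.19 to 0.40), or 0.05 (95% interval -0.16 to 0.26) without Control 2. Calca was at 64.7, 37.0 and 95.4 CPM in Controls 1 to 3, against 58.3, 85.2 and 108 CPM without Blimp-1, and varied more among the libraries of a group than between the groups. Its log2 fold change was 0.33 (95% interval -0.55 to 1.20), or 0.07 (95% interval -0.51 to 0.66) without Control 2. Chga, Chgb and Resp18 were at or under 0.13 TPM on average in Blimp-1-deficient libraries and in Controls 1 and 3, where Calca was at 198 and 183 TPM. All 10 markers of that list summed to 161 to 239 CPM in Blimp-1-deficient libraries and 165 to 207 CPM in Controls 1 and 3, most of it Pcsk1, and the part of such cells in the Calca values was not tested.

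**Figure D4:**
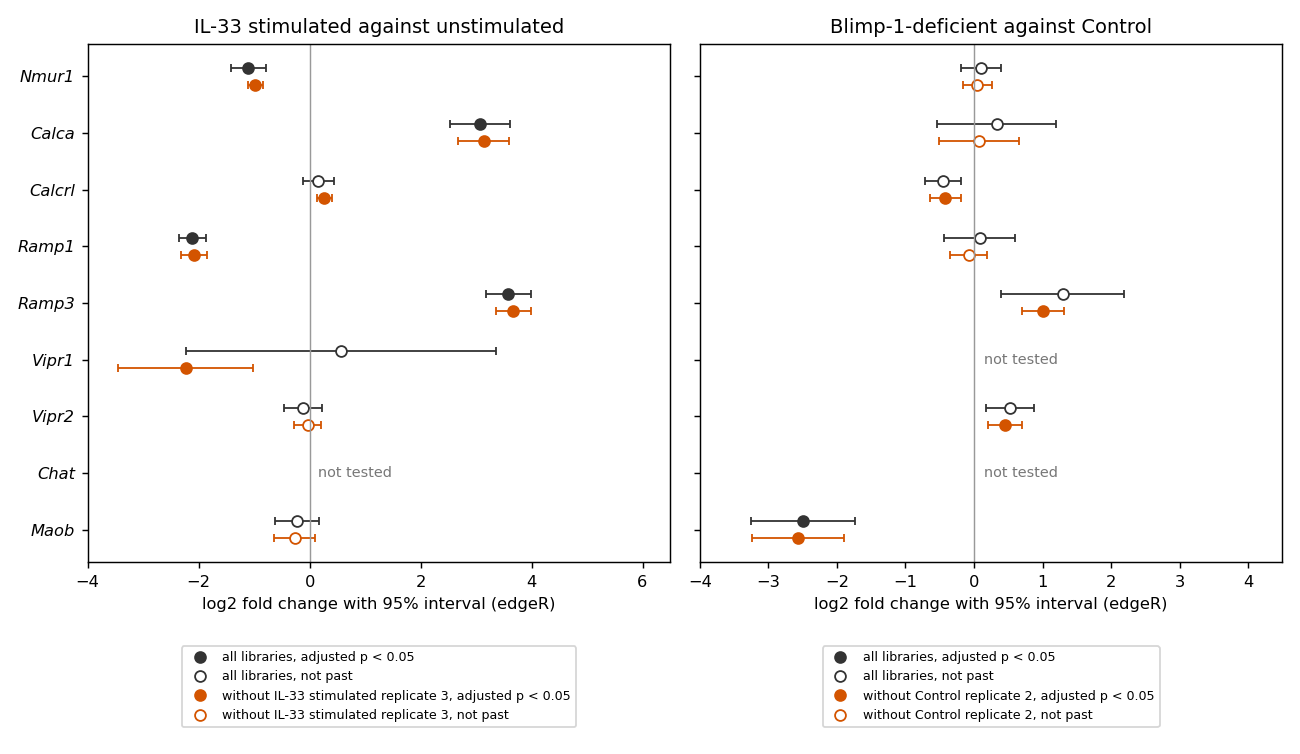
Log2 fold change with its 95% interval (edgeR) for each gene, IL-33 stimulated against unstimulated (left) and Blimp-1-deficient against Control (right), with all libraries in black and without the library that stood apart in orange. Filled points have an adjusted p under 0.05; leaving out stimulated replicate 3 moves Vipr1 from 0.57 to -2.23, a description since Vipr1 entered that fit only through the unstimulated group, and leaving out Control 2 narrows the interval of Ramp3 from 0.39 to 2.19 to 0.70 to 1.31.

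The order of the genes by level was read per length, in TPM. In unstimulated ILC2s Nmur1 led at 485 ± 24.8 TPM (SD, n = 4), followed by Ramp1 at 145 ± 13.7 TPM. Maob (79.7 ± 14.2) and Calcrl (67.5 ± 5.39) came next with overlapping ranges, then Ramp3 (21.8 ± 2.80). Calca (14.4 ± 2.74) and Vipr2 (12.2 ± 1.36) overlapped, and Vipr1 (0.33 ± 0.16) and Chat (0.03 ± 0.02) were last. Nmur1 ranked between 253 and 287 of the 53278 genes in these libraries. After IL-33, Ramp3 (208 ± 39.1 TPM, SD, n = 4), Nmur1 (180.3 ± 38.0) and Calca (96.0 ± 23.6) formed the top of the order, each overlapping the next. In replicates 1, 2 and 4 alone, Ramp3 (223 ± 30.9 TPM, SD, n = 3) and Nmur1 (199 ± 9.55) overlapped, and Nmur1, at 191 TPM or more, lay above Calca (102 ± 25.3), which reached 127 TPM. Over all 4, Calcrl (60.0 ± 11.8) and Maob (54.4 ± 10.7) overlapped, and Ramp1 (26.7 ± 2.56) had fallen below both. In Blimp-1-deficient ILC2s the order was Nmur1 (371 ± 29.0 TPM, SD, n = 3), Calca (198 ± 50.6), Ramp3 (147 ± 20.0), Calcrl (61.0 ± 6.56), Ramp1 (16.9 ± 1.01), Vipr2 (13.0 ± 1.45) and Maob (3.96 ± 1.49), and only Calca and Ramp3 overlapped. In Controls 1 and 3, Nmur1 (310 and 380 TPM) and Calca (144 and 221 TPM) also led, whereas Calcrl (75.9 and 81.0 TPM) lay above Ramp3 (65.4 and 75.4 TPM), and Maob (19.3 and 25.4 TPM) lay above Ramp1 (15.7 and 18.8 TPM). TPM of Control 2 are not used for this order, since 93.9% of its TPM were on the 7 loci. The experiments were processed and deposited apart and differ in time and cytokines, so levels across them stand side by side without a test.

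For the members with a mean of at least 5 CPM, the genes most alike over the 8 libraries of the stimulation experiment were sought among 10810 genes by Pearson's r of log2 CPM. The libraries form 2 groups that lie apart for several members, so r holds the difference between groups as well as the spread within them. Stimulated replicate 3 is among the 8 libraries, and r was not computed without it. Nmur1 was most like Tgfbr2 (r = 0.9996), which encodes a TGF-beta receptor, then Smim14 and Fam102a. Ramp1 was most like Nfic, Sfxn3 and Hsd11b1 (r = 0.9989 to 0.9977). Ramp3 was most like Gem, Bet1 and Milr1 (r = 0.9989 to 0.9979), and Calca like Gm10177, Kctd5 and Dcun1d3 (r = 0.9982 to 0.9955). Calcrl was most like Elp2, Dhx37 and Bahd1 (r = 0.99 to 0.98), Vipr2 like Malt1, Rora and Zfand1 (r = 0.95 to 0.93), and Maob like Rsl1 and Zfp287 (r = 0.99 and 0.88).

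The wider signalling system was read from 162 genes in 9 lists of other ligands, receptors, enzymes and transducers. In the stimulation experiment 79 of them were tested, of which 10 were higher and 16 lower, in a fit that called 16.2% of all genes higher and 16.1% lower. Without replicate 3 the numbers were 18 and 32 of 80, where 27.5% of all genes were called higher and 29.7% lower. The 39 transducers of Gs, Gq, cAMP and calcineurin signalling, all of them tested, held 5 higher and 12 lower over all libraries and 8 higher and 18 lower without replicate 3. The median log2 fold change of this list was -0.08, against 0.06 over all genes tested. Nr4a1, an immediate early nuclear receptor, rose by 3.87 (SE 0.20, edgeR adjusted p = 1.24e-05), from a mean of 6.58 to 96.1 CPM, and by 4.00 without replicate 3. Crem, which encodes the cAMP-inducible regulators of CREB targets, rose by 2.50 (SE 0.10), from 58.7 to 332 CPM, and by 2.54 without that library. The cAMP phosphodiesterase gene Pde4d rose by 1.30 (SE 0.20), or 1.12 without it. Adcy6, an adenylyl cyclase, fell by 1.65 (SE 0.15), the calcineurin-dependent factor Nfatc2 by 1.27 (SE 0.14), and the CREB coactivator Crtc3 by 1.12 (SE 0.16). Without replicate 3, Adcy6 fell by 1.75, Nfatc2 by 1.15 and Crtc3 by 0.98. These 6 genes passed the test with and without replicate 3.

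Among the ligands and receptors, most genes were too low to test. None of the 3 genes of the neuromedin U list was tested, nor were 29 of the 32 other neuropeptide receptors, of which Gpr171 rose by 1.31 (SE 0.11, edgeR adjusted p = 9.63e-05), from a mean of 115 to 284 CPM. Adm, which encodes adrenomedullin, a ligand of CALCRL paired with RAMP2 or RAMP3, fell by 0.53 (SE 0.13, edgeR adjusted p = 0.0150), from 33.4 to 23.1 CPM. Of the monoamine genes, Tph1, the first enzyme of serotonin synthesis outside the brain, rose by 2.92 (SE 0.24, edgeR adjusted p = 9.87e-05), from 22.0 to 167 CPM, and the serotonin receptor gene Htr1b rose by 0.47 (SE 0.10, edgeR adjusted p = 0.00981). The choline transporter gene Slc44a2 fell by 0.85 (SE 0.09), from 149 to 82.9 CPM. These 5 genes passed the test without replicate 3 as well, where Gpr171 rose by 1.39, Tph1 by 3.04 and Htr1b by 0.55, and Adm fell by 0.51 and Slc44a2 by 0.79. The muscarinic receptor gene Chrm4 was at a mean of 0.28 CPM in unstimulated libraries, 4.34 CPM over all stimulated ones and 0.93 CPM without replicate 3. It entered both fits through the stimulated group, so its levels are given as a description.

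Some receptor genes differed in sign with and without replicate 3. The 7 GABA and glutamate receptor genes tested had a median log2 fold change of 3.33 over all libraries and -0.78 without replicate 3, where 4 of them were lower. Gabbr2 had a log2 fold change of 3.72 (SE 1.61, edgeR adjusted p = 0.113) with that library and -0.78 (edgeR adjusted p = 0.00603) without it, and Grin1 and Gabbr1 changed sign in the same way. Drd2 was at a mean of 0.50 CPM in unstimulated libraries and 4.34 CPM in stimulated ones, or 0.17 CPM without replicate 3, and Adrb1 at 0.62, 2.96 and 0.26 CPM. Both lay near the low-count filter, so these levels are given as a description. Neuron and glia markers themselves had a median of 3.48 over all libraries and -0.64 without replicate 3, where 8 of the 16 tested were lower and 1, Gap43, higher.

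In the Blimp-1 comparison 80 genes of these lists were tested, and 1 passed over all libraries, Pde7a, which encodes a cAMP phosphodiesterase. It rose by 0.60 (SE 0.08, edgeR adjusted p = 0.0430), from a mean of 74.6 to 113 CPM. This call depended on the libraries and the model. No gene passed when Blimp-1-deficient replicate 1 or 3 was left out, or with a term for the replicate number. Without Control 2, 7 of 81 were higher and 6 lower, against the background shares given above for that fit. In that fit Pde7a rose by 0.64, Nr4a1 by 0.72 (edgeR adjusted p = 0.0270), Sik1, a kinase gene that is itself a CREB target, by 0.59 (edgeR adjusted p = 0.00328), Crem by 0.40 (edgeR adjusted p = 0.0372) and the G protein subunit gene Gng2 by 0.31 (edgeR adjusted p = 0.0283). Nfatc2 fell by 0.29 (edgeR adjusted p = 0.0338), Htr1b by 0.28 (edgeR adjusted p = 0.0376) and Akr1b3, an aldose reductase gene, by 0.34 (edgeR adjusted p = 0.0372). With Control 2 included, none of the other 7 genes passed, and several values moved. The log2 fold changes were then 0.78 for Nr4a1, 0.41 for Sik1, 0.71 for Crem (edgeR adjusted p = 0.506), 0.47 for Gng2 (edgeR adjusted p = 0.373), -0.63 for Nfatc2 (edgeR adjusted p = 0.379), -0.23 for Htr1b and -0.21 for Akr1b3. The plot of fold changes by list shows these genes among its red points.

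**Figure D5:**
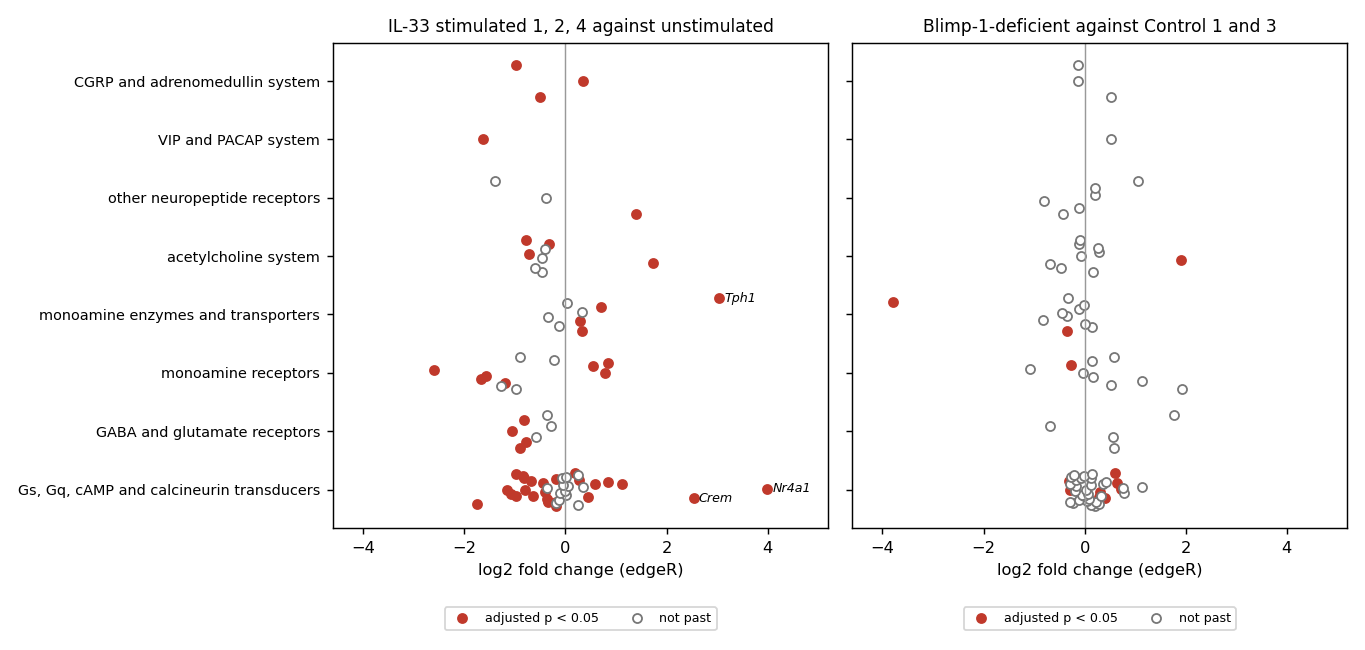
Log2 fold changes (edgeR) of all tested genes in 8 lists, without IL-33 stimulated replicate 3 (left) and without Control replicate 2 (right), with 1 point per gene and red points at an adjusted p under 0.05. Nr4a1, Tph1 and Crem are the largest rises on the left, at 4.00, 3.04 and 2.54, and most points on the right lie near 0.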

How the data were processed

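RNA of sorted ILC2s was amplified by the authors with SMART-seq v4 and sequenced as 75-base paired reads. Per the study's methods, reads were trimmed with cutadapt, aligned to GRCm38 with HISAT2 and counted with Subread (the submitters' processing notes name Bowtie2, Subread and DESeq2). The authors deposited raw counts per gene, whole numbers without normalization, and TPM, which scale each library to 1e+06. The strand used for counting is not given in the sources used here.

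Genes were tested on the counts by edgeR 4.0.16 (R 4.3.3) after TMM scaling, using filterByExpr at its defaults, the two-sided quasi-likelihood test and Benjamini-Hochberg adjustment over all genes tested (threshold 0.05), without a term for the replicate number. CPM are TMM-normalized counts per 1e+06 without a prior count. Alternatives were DESeq2 1.42.0, RLE size factors, library size alone, no filter or a mean count of at least 50, limma 3.58.1 on log2(TPM + 1) and log2(TPM + 0.1), the replicate block, and each library left out. The test was checked on simulated counts. Of 100 genes changed 2-fold, it recovered 28 after IL-33 (64 without replicate 3) and 21 in the Blimp-1 comparison (71 without Control 2). Of 100 changed 4-fold, it recovered 57 (97) and 60 (87). False calls were 4 of 89 (8 of 169) and 4 of 85 (13 of 171). A gene that did not pass may therefore still have changed. Spans come from the GENCODE annotation of GRCm38 and promoter windows from RefSeq. Figures were drawn with matplotlib 3.10.9.

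The members, lists and tests were chosen with earlier results of these data known, including the 2 libraries that stand apart. All 9 members are named. Of the lists, up to 6 genes per list and experiment are named, those past the threshold in either fit that average 1 CPM or more and have the largest fold change, beside fixed partner genes of the members. The 3 most alike genes used log2 CPM with a prior count of 2. P-values set the difference between groups against the spread between libraries. The sources used here do not establish that this is the spread between single animals. Some genes that this rule selects are not reported here. The ATAC-seq was not used here.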

Additional observations from a re-analysis of the deposited data

Results flagged for a closer look

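In 3 of 18 sets of 4 libraries, 1 library lay far from the other 3 relative to the whole range. Chance gives such a gap in about 1 of 20 sets, but the sets share libraries and all 3 gaps were in IL-33 stimulated replicate 3, which was already known to stand apart, so the number of gaps is a description. Nmur1 was at 80.6 CPM there, against 118 to 122 CPM in the other stimulated libraries. Vipr1 was at 3.35 CPM, against 0.0708 to 0.164 CPM. Chat was at 1.87 CPM, against 0 CPM, and its gap follows from the 3 zeros. The same library held 3508 CPM of the 20 neuron and glia markers, against 142 to 175 CPM, and the part of those transcripts in the 3 values was not tested.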

How the results depend on the processing

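The calls of Nmur1, Calca, Ramp1 and Ramp3 after IL-33 held under all 16 alternatives, with log2 fold changes of -1.45 to -0.98, 2.64 to 3.21, -2.44 to -2.02 and 3.18 to 3.71. Calcrl after IL-33 turned to -0.00803 with library size alone and to -0.19 with limma on log2(TPM + 1) or log2(TPM + 0.1), and Vipr1 to -0.85 with the replicate block and to -2.23 without replicate 3 (leaving out 1 library gave -2.23 to 0.996). Maob after IL-33 was called lower under 2 of the 16 alternatives, which gave log2 fold changes of -0.56 to -0.08. Without replicate 3 it was called lower under 1 of 5, which gave -0.44 to -0.24. In the Blimp-1 comparison over all libraries, DESeq2 called 1 member higher and 2 lower. Library size alone, both limma fits on TPM and the replicate block called 0 lower. The block called 0 of 17335 genes, with 1380 at an unadjusted p under 0.05, and leaving out 1 library gave 0 to 2 higher and 0 to 2 lower. Calcrl turned to 0.049 with library size alone and to 1.16 and 1.30 with limma, where the median of all genes was shifted by 1.28 and 1.69. Ramp1 ranged from -0.0799 without Control 2 to 0.254 with 1 library left out. Without Control 2, Ramp3 and Maob passed under all 8 alternatives. Leaving out Blimp-1-deficient replicate 1 or 3 as well gave 1 higher and 1 lower (range 1 to 2 each), as Vipr2 and Calcrl then missed the threshold, and gave -0.125 to 0.0146 for Ramp1, -0.00872 to 0.0952 for Nmur1 and -0.14 to 0.28 for Calca. The labels do not say whether the 2 stimulation libraries of 1 mouse number share an animal. Deviations from group means correlated at -0.11 to 0.41 between same-numbered libraries there and at -0.42 to 0.30 between differently numbered ones. In the Blimp-1 experiment the ranges were -0.13 to 0.11 and -0.16 to 0.15. The ranges overlap, and stimulated replicate 3 shifts the mean of its group, so they cannot settle whether animals were shared. The main fits took no pairs, and the replicate block is an alternative. After IL-33 the replicate block kept 2 members higher and 2 lower. Chat, and Vipr1 in the Blimp-1 experiment, lay under the low-count filter and were not tested.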
